A study of Drosophila melanogaster with 3 samples.

Results

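The nuclear tRNA genes were examined in chromatin immunoprecipitation sequencing (ChIP-seq) of Mirror, an Iroquois homeodomain transcription factor, in whole Drosophila melanogaster embryos. The members were selected by annotation alone, as the genes of biotype tRNA on the main chromosome arms in the Ensembl annotation of BDGP6.54, and numbered 290 of 18164 annotated genes (transposable elements were not counted). The 3 samples formed 1 group of biological replicates, embryos of both sexes aged 4 to 20 h from a transgenic line with a C-terminal GFP on mirr, and the design held no untagged or untreated group. Chromatin was sonicated to 200 to 800 bp, and the sample descriptions speak of an input control where the title and antibody fields name the ChIP of mirr. The authors deposited a list of 6201 peaks that passed an irreproducible discovery rate (IDR) procedure, a list of 30000 regions called without that threshold for each replicate (the whole relaxed lists), and the same on pooled reads. Read numbers are not given in the sources used here, so the depth of each replicate is unknown.

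Mirror is known for patterning the eye and other epithelia. Transfer RNA genes are short and are transcribed by RNA polymerase III. Their promoter lies inside the transcribed sequence and consists of the A box and the B box, which bind the assembly factor TFIIIC; TFIIIC then places the initiation factor TFIIIB upstream of the start. Many genome-wide ChIP experiments show signal at tRNA genes, and in flies tRNA genes often lie in clusters. The 290 genes carried 95 distinct sequences, of which 52 occurred once and the most repeated occurred 13 times. They covered 22 isotypes and had a median length of 73 bp, with a range of 71 to 186 bp.

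The 3 genes below, each with an IDR summit within 500 bp, are shown with their internal promoter in capitals, the A box first and the B box (GTTCNANNC) second. They are written 5′ to 3′ on the transcribed strand from the release 6 reference. Pro-AGG-1-1 lies at chr2L:14495878-14495949, Pro-TGG-1-4 at chr3R:17645610-17645681 and Leu-CAA-2-3, the longest of the 3, at chr3R:23601333-23601455, all between protein-coding genes.
tRNA:Pro-AGG-1-1: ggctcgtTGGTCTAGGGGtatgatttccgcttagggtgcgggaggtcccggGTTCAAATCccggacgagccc
tRNA:Pro-TGG-1-4: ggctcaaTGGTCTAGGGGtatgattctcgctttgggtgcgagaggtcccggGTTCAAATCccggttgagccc
tRNA:Leu-CAA-2-3: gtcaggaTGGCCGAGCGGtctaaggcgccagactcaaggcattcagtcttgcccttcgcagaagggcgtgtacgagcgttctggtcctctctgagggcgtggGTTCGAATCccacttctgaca
A gene of the lysine isotype, none of whose 19 genes had an IDR summit, is given beside them, as is a gene of the cysteine isotype, with none of 7. They lie at chr3R:6819894-6819966 and chr3L:3095737-3095808, the second in an intron of Cht7.
tRNA:Lys-TTT-2-1: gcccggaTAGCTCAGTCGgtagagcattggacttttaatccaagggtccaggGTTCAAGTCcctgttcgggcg
tRNA:Cys-GCA-1-1: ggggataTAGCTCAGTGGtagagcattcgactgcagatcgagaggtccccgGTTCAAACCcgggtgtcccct
Both promoter elements were found in most genes with and without an IDR summit. A match to the A box consensus was present in 49 of 50 genes with an IDR summit and in 221 of 240 without one. GTTCNANNC was present in 44 of 50 and in 227 of 240, and its narrower form GTTCGANNC in 24 of 50 and in 136 of 240.

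The nearest IDR summit lay inside the gene at 4 of the 50 tRNA genes and beside it at the rest, as in the 4 windows below. They are written on the plus strand with tRNA gene sequence in capitals, and none of them overlaps an exon of a protein-coding gene. Between the divergent genes Ala-AGC-2-6 and Pro-TGG-1-4 (chr3R:17645345-17645644) the IDR summit was base 117 of the window, in the spacer.
Ala-AGC-2-6 and Pro-TGG-1-4: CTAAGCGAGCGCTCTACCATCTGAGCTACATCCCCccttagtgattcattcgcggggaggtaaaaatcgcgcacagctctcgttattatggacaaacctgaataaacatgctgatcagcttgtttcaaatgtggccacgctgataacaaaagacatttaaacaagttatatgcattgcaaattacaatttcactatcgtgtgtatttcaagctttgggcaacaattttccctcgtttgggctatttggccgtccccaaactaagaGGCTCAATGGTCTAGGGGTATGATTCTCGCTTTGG
At the tandem genes Ala-AGC-2-2 and Pro-TGG-1-2 (chr3R:17619738-17620032) it was base 104, also in the spacer.
Ala-AGC-2-2 and Pro-TGG-1-2: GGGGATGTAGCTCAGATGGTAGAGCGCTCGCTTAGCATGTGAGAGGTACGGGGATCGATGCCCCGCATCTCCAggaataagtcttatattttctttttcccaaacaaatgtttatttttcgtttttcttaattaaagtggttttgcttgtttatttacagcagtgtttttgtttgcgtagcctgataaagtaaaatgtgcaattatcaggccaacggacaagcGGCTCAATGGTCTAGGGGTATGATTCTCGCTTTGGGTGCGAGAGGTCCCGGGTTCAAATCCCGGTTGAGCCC
At Leu-CAA-2-3, which reads from right to left in this window (chr3R:23601431-23601655), it was base 168.
Leu-CAA-2-3 upstream: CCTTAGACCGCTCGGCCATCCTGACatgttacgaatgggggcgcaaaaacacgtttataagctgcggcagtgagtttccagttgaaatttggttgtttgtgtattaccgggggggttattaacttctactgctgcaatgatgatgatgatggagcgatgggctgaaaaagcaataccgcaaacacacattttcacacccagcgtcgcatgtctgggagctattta
At Phe-GAA-1-3, which lies alone in an intron of Sema1a (window chr2L:8570613-8570912), it was base 26, at 250 bp upstream of the gene.
Phe-GAA-1-3 upstream: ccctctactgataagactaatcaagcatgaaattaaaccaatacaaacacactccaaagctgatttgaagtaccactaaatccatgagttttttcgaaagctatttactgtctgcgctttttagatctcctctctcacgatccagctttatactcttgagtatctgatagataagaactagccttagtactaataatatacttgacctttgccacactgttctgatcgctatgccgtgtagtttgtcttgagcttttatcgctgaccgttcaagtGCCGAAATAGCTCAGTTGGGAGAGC

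Of the 290 tRNA genes, 50 (17.2%) had an IDR summit within 500 bp of the gene. Measured from the 5' end, as for other genes, the count was 49 (16.9%), against a background of 16.1% of the 17874 genes of other classes. The share of all tRNA genes was therefore close to the share of genes in general. The 6201 strongest regions of each replicate gave 55, 75 and 35 tRNA genes in replicates 1, 2 and 3, a mean of 19.0% ± 6.90 (SD, n = 3). From the 5' end these were 19.0%, 25.9% and 10.3% of tRNA genes, against backgrounds of 18.7%, 13.9% and 14.0%. The tRNA share was near the background in replicate 1, above it in replicate 2 and below it in replicate 3. The whole relaxed lists gave 171, 162 and 109 tRNA genes. From the 5' end these were 57.9%, 55.2% and 34.8%, against backgrounds of 45.6%, 40.0% and 37.2%. Replicates 1 and 2 thus lay above the background and replicate 3 slightly below it. Where an IDR peak also had to overlap the strongest regions of both remaining replicates, the 50 genes became 22 without replicate 1, 23 without replicate 2 and 43 without replicate 3. No test was made between gene classes, because genes are not replicates.

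Coding promoters lie near few of these genes. A protein-coding transcription start site (TSS) lay within 500 bp of 33 tRNA genes, and 14 of the 33 (42.4%) had an IDR summit. Measured from the 5' end these were 13 of 32 (40.6%), against a background of 19.5% of the 625 other noncoding genes with their start that near. In the strongest regions they were 40.6%, 40.6% and 18.8% in replicates 1, 2 and 3, against 23.0%, 18.4% and 16.2%. The means were 33.3% ± 12.6 and 19.2% ± 3.51 (SD, n = 3 each), and the lowest tRNA value lay within the range of the other noncoding genes. The other 257 lay farther away, and 36 of them (14.0%) had one. Under the same requirement for the remaining replicates the 36 became 15 without replicate 1, 17 without replicate 2 and 31 without replicate 3. Of the 36, 3 had their summit within 500 bp of a coding TSS all the same. The matching background, noncoding genes other than tRNA with their start over 500 bp from any coding TSS, was 5.48% (181 of 3304). The same rule at tRNA genes gave 36 of 258 (14.0%). Of all positions on the arms over 500 bp from a coding TSS, 2.78% lay within 500 bp of an IDR summit. In the strongest regions the share of such tRNA genes was 16.3%, 24.0% and 9.30% in replicates 1, 2 and 3, against 5.57%, 5.66% and 5.66% of the other noncoding genes. It was higher in 3 of 3 replicates, with means of 16.5% ± 7.37 and 5.63% ± 0.0524 (SD, n = 3 each). In the whole lists it was 47.9% ± 12.4 against 21.5% ± 0.900 (SD, n = 3 each), again higher in 3 of 3. Of the 257, 174 had another tRNA gene within 2000 bp and 83 stood alone. An IDR summit lay within 500 bp of 31 of the 174 genes (17.8%) and of 5 of the 83 (6.02%). In the IDR list the lone genes were thus near the 5.48% of other noncoding genes, and clustered genes, which share peaks, were above it. The strongest regions held 8.43%, 10.8% and 10.8% of the lone genes in replicates 1, 2 and 3 (7, 9 and 9 of 83), above the other noncoding genes in each. Lone and clustered genes were measured from the gene body and the other noncoding genes from the gene start, so these shares are not strictly alike. Small nucleolar RNA (snoRNA) genes away from coding TSSs, which are also short and mostly lie in introns, were at 6.67% in the IDR list. The 29 small nuclear RNA (snRNA) genes away from coding TSSs were closer to the tRNA genes, at 10.3% in the IDR list. In the strongest regions they were at 17.2%, 13.8% and 6.90% in replicates 1, 2 and 3. This was above the tRNA genes in replicate 1 and below them in replicates 2 and 3, and the means differed by less than the SD of either class. In the whole lists the snRNA genes were below the tRNA genes in each replicate, at 20.7%, 34.5% and 13.8% against 56.2%, 53.9% and 33.7%. Their mean there, 23.0% ± 10.5 (SD, n = 3), was near the 21.5% of other noncoding genes.

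**Figure D1:**
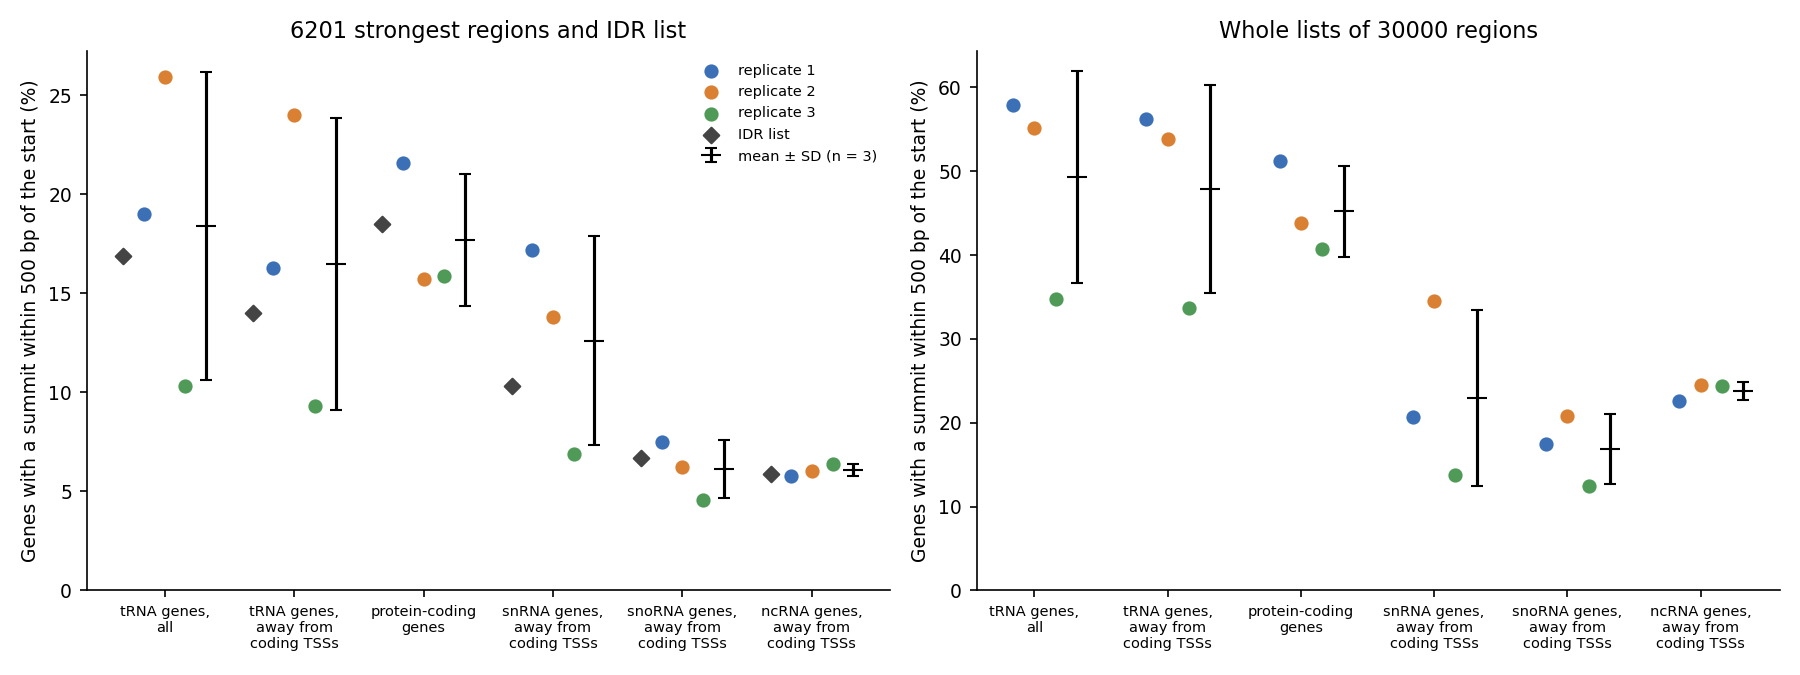
Share of genes with a summit within 500 bp of the gene start (vertical axis, percent) by gene class, in the IDR list and the 6201 strongest regions of each replicate (left) and in the whole lists (right); horizontal bars with whiskers are the mean ± SD over 3 replicates. tRNA genes away from coding TSSs lie between 9.30% and 24.0% in the strongest regions, above the snoRNA and other ncRNA genes away from coding TSSs in each replicate, while the snRNA genes away from coding TSSs lie between 6.90% and 17.2% and overlap them.

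The replicates differed in which tRNA genes they held. In the strongest regions 20 of the 290 genes recurred in all 3 replicates, 29 in 2, 47 in 1 and 194 in none. Replicates 1 and 2 shared 25 genes that replicate 3 lacked, whereas replicates 1 and 3 alone shared 3 and replicates 2 and 3 alone shared 1. In the whole lists 83 genes recurred in all 3, 70 in replicates 1 and 2 alone, 5 in replicates 1 and 3 alone and 4 in replicates 2 and 3 alone, and 93 genes had no region in any replicate. All 50 genes with an IDR summit had a region in at least 2 whole lists, 40 of them in all 3. No gene was among the strongest regions of all 3 replicates without an IDR summit. The recurrence of genes of other classes was not counted, so whether these numbers are particular to tRNA genes is unknown.

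The position of the summits showed the same difference between replicates. In the whole lists, 37 and 44 summits of replicates 1 and 2 fell in the 100 bp just upstream of the 5' end of the nearest tRNA gene, which was the fullest bin of 100 bp within 2000 bp on either side. In replicate 3 that bin held 7. From 200 bp upstream to 100 bp downstream of the 5' end the mean per bin was 29.0, 26.7 and 11.0 summits in replicates 1, 2 and 3, against 4.75, 5.00 and 4.55 at 1000 to 2000 bp away. The ratios were 6.11, 5.33 and 2.42. The same ratio in the strongest regions was 8.44, 9.70 and 2.08, and in the IDR list 6.67, where the fullest bin lay 200 to 100 bp upstream with 8 summits. Each summit was counted only at its nearest tRNA gene, so clustered genes offered fewer positions 1000 to 2000 bp away than lone genes. This rule raised the ratios, and the ratio of an even spread of summits was not computed. By this count the bins near the 5' end held more summits than those 1000 to 2000 bp away in all 3 replicates. The ratio was lowest in replicate 3, whose strongest regions had 5 summits from 200 bp upstream to 100 bp downstream. How much of each ratio came from the counting rule is unknown, so a higher density near tRNA genes in replicate 3 is not shown. At the 83 genes with a region in each whole list, the nearest summits of replicates 1 and 2 lay a median of 42.0 bp apart, those of replicates 1 and 3 81.0 bp and those of replicates 2 and 3 76.0 bp.

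**Figure D2:**
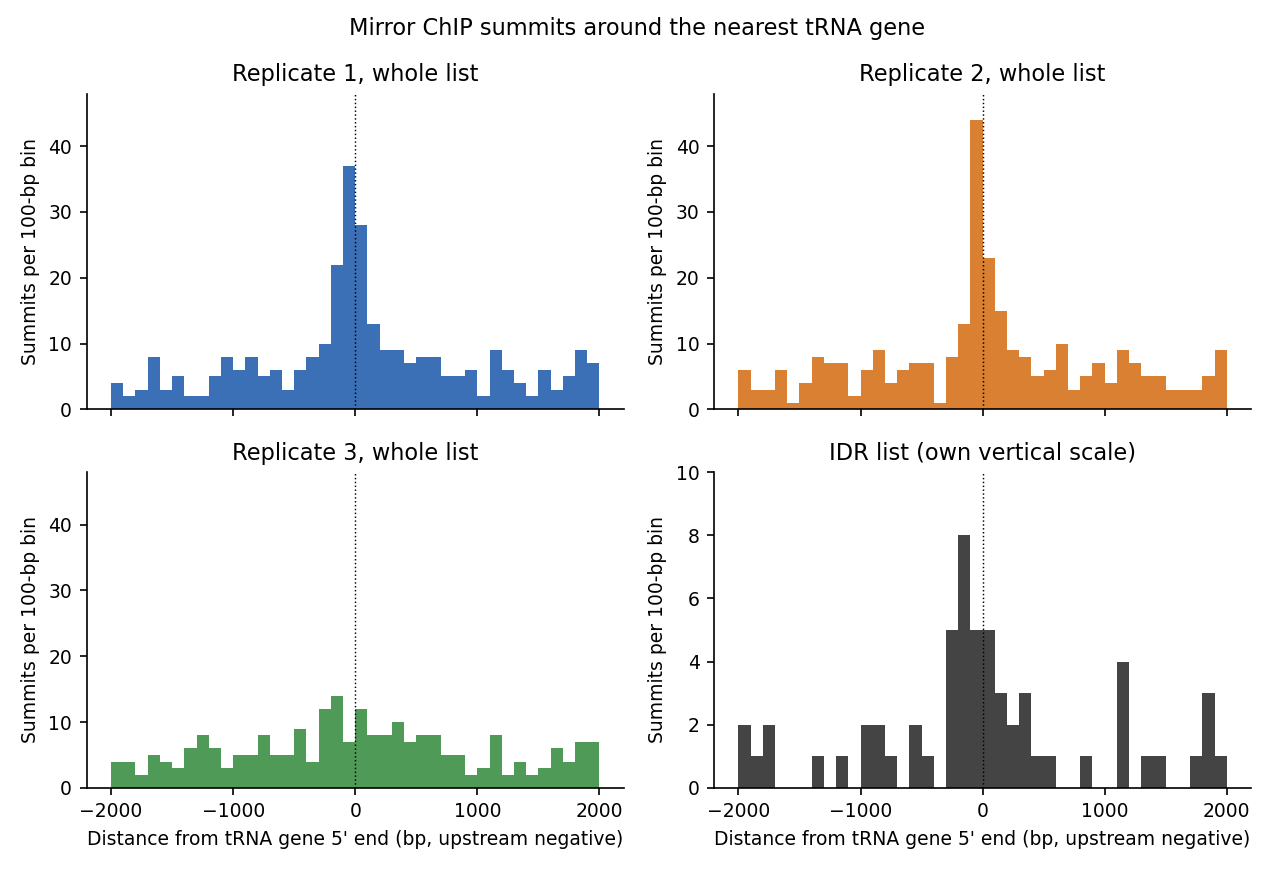
Number of summits per 100-bp bin (vertical axis) by distance from the 5' end of the nearest tRNA gene (horizontal axis, bp, upstream negative) in the whole list of each replicate and in the IDR list, which has its own vertical scale. The bin just upstream of the 5' end holds 37, 44 and 7 summits in replicates 1, 2 and 3.

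The 50 genes shared 34 distinct IDR peaks. Of these, 20 peaks lay near 1 tRNA gene, 11 near 2 and 3 near 3, so the genes are not independent. Relative to the gene, the nearest IDR summit lay upstream of 32 genes, inside 4 and downstream of 14. The 34 peaks were 0.548% of the list and of ordinary strength, with a median rank of 3312.5 of 6201 and ranks from 188 to 5844 (rank 1 is the strongest). A coding TSS lay within 500 bp of 14 of the 34 summits (41.2%), against 45.0% of all IDR summits.

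Clustered genes had a larger share than lone genes in the IDR list and in the whole lists, but not in the strongest regions of replicate 3. With gaps of up to 2000 bp joined, the 290 genes formed 69 clusters, which held 200 genes, and 90 lone genes. An IDR summit lay within 500 bp of 41 of the 200 clustered genes (20.5%) and of 9 of the 90 lone genes. In the strongest regions clustered genes were at 22.5%, 31.0% and 11.5% in replicates 1, 2 and 3, and lone genes at 11.1%, 14.4% and 13.3%. In the whole lists clustered genes were at 70.0%, 68.0% and 39.0% in replicates 1, 2 and 3, and lone genes at 34.4%, 28.9% and 34.4%. The lone genes thus had similar shares in the 3 replicates, and the clustered genes were lower in replicate 3. Counted by locus, 21 of 69 clusters and 9 of 90 lone genes had an IDR summit, but a cluster had a median length of 750 bp and so offered a wider window. The whole lists touched 54, 52 and 41 of the 69 clusters, against 31, 26 and 31 of the 90 lone genes. Between neighbouring tRNA genes of a cluster an IDR summit lay in 6 of 29 divergent gaps, 3 of 72 tandem gaps and 1 of 30 convergent gaps. The whole lists of replicates 1, 2 and 3 had a summit in 14, 16 and 5 of the divergent gaps. Tandem gaps had 21, 20 and 9 and convergent gaps 5, 7 and 4, so the orientations were closer to each other in replicate 3. These counts are small, and gap lengths were not compared by orientation.

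**Figure D3:**
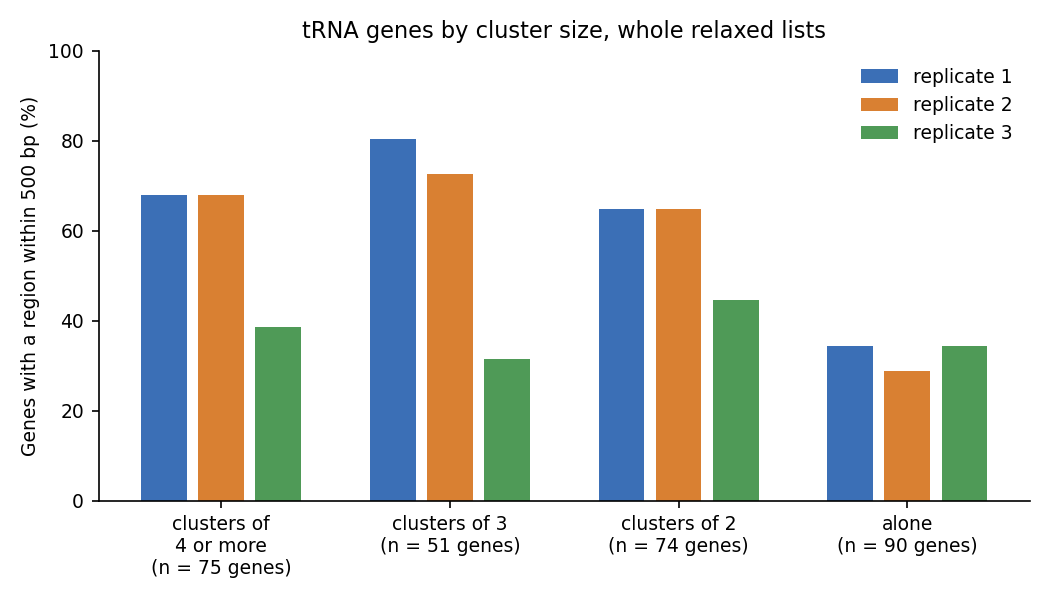
Share of tRNA genes with a region of the whole relaxed list within 500 bp (vertical axis, percent) by cluster size and replicate; each bar is 1 replicate. Lone genes lie between 28.9% and 34.4% in all 3 replicates, while clustered genes lie higher in replicates 1 and 2 than in replicate 3.

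The 3 clusters with the most genes, 7 each, differed. In an intron of ATP8A on 2R (13430282 to 13432794), Ile-AAT and Leu-CAA genes had IDR summits at 4 of 7 genes. Of these, Leu-CAA-2-1, Ile-AAT-1-4 and Ile-AAT-1-5 shared a peak. At Ile-AAT-1-3 the strongest peak had its summit 463 bp from the gene and within 500 bp of a TSS of ATP8A. The whole lists of replicates 1, 2 and 3 reached all 7. The cluster of initiator methionine and glutamate genes on 2R (19725620 to 19728958) also had 4 of 7, with 7, 7 and 5 genes in the whole lists. The Arg-TCG and Ser-CGA cluster on X (14014814 to 14017284) had none in the IDR list and 0, 0 and 2 genes in the whole lists of replicates 1, 2 and 3.

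Among tRNA genes away from coding TSSs, the strongest IDR peak lay 327 bp downstream of Ala-TGC-2-1 on 2R (17392215 to 17392286), with a signal of 950. Its ranks were 274, 259 and 160 in replicates 1, 2 and 3, among the highest in each. The peak of Phe-GAA-1-3 followed with a signal of 634 and ranks of 798, 596 and 569. Thr-AGT-1-2, which overlaps an exon of CG12831, had a signal of 544 at 141 bp upstream and ranks of 1184, 686 and 915. These 3 peaks were strong in every replicate.

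A single peak with a signal of 541 was the nearest strong peak of iMet-CAT-1-1, iMet-CAT-1-2 and Glu-TTC-1-4, and its summit lay 20 bp past the end of iMet-CAT-1-2, a gene of the tRNA that starts translation. Its ranks were 1255, 951 and 902, and the summits of the 3 replicates fell within 6 bp of each other. The peak near Glu-TTC-1-5 in the same cluster had ranks of 1422, 508 and 4577. Replicate 3 was the lowest there, as it was at most of the following peaks.

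The peak within 500 bp of Ile-AAT-1-4, Ile-AAT-1-5 and Leu-CAA-2-1 had its summit inside Ile-AAT-1-4, at 51 bp from its 5' end. It had a signal of 308 and ranks of 1331, 2869 and 12116. The peak at Ser-CGA-1-4, in an intron of hts, had its summit 34 bp into the gene and also lay within 500 bp of Val-AAC-2-1. Its ranks were 3431 and 1745 in replicates 1 and 2, and replicate 3 had no region. The peak between Ser-TGA-1-1 and Ser-TGA-2-1, with its summit 354 bp from the first and 127 bp from the second, ranked 2913, 2609 and 6530. Val-CAC-2-5 was the exception among these, with ranks of 3634, 7050 and 2056, and its summit lay within 500 bp of a TSS of Naam. Tyr-GTA-1-7 had its summit within 500 bp of a TSS of CG8036, with ranks of 1087, 510 and 7079.

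Among the genes whose sequence is printed, the peak of Pro-AGG-1-1 was weak, with a signal of 200, and ranked highest in replicate 3 (8564, 8586 and 3269). The peak between Ala-AGC-2-6 and Pro-TGG-1-4 had a signal of 277 and ranks of 5778, 1592 and 3746. That of Ala-AGC-2-2 and Pro-TGG-1-2 had a signal of 272 and ranks of 3513, 2729 and 6732. Leu-CAA-2-3 had a signal of 275 and ranks of 5999, 1654 and 3909, so the order of the replicates differed from gene to gene. Lys-TTT-2-1 had no region within 500 bp in any replicate, while Cys-GCA-1-1 had one of rank 9488 in replicate 1 and 21908 in replicate 2. The sequence of Lys-TTT-2-1 occurs 5 times, with 4 copies in 1 cluster (3R 6819894 to 6823035). How reads with several matches were assigned is not given, so whether reads could be placed there is unknown.

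Near coding TSSs, the strongest peak lay 225 bp upstream of Tyr-GTA-1-8 and within 500 bp of a TSS of CG8036, with a signal of 766 and ranks of 162, 545 and 1173. Trp-CCA-2-2 and Gly-GCC-1-9 shared a peak within 500 bp of a TSS of CG30122, with a signal of 671 and ranks of 486, 1270 and 493. The peak near Phe-GAA-1-2 on X lay within 500 bp of a TSS of RpL17, a ribosomal protein gene, with ranks of 832, 2354 and 1823. Tyr-GTA-1-6 shared the peak of Tyr-GTA-1-7. At such sites the tRNA gene and the coding promoter cannot be told apart as the place of the signal.

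**Figure D4:**
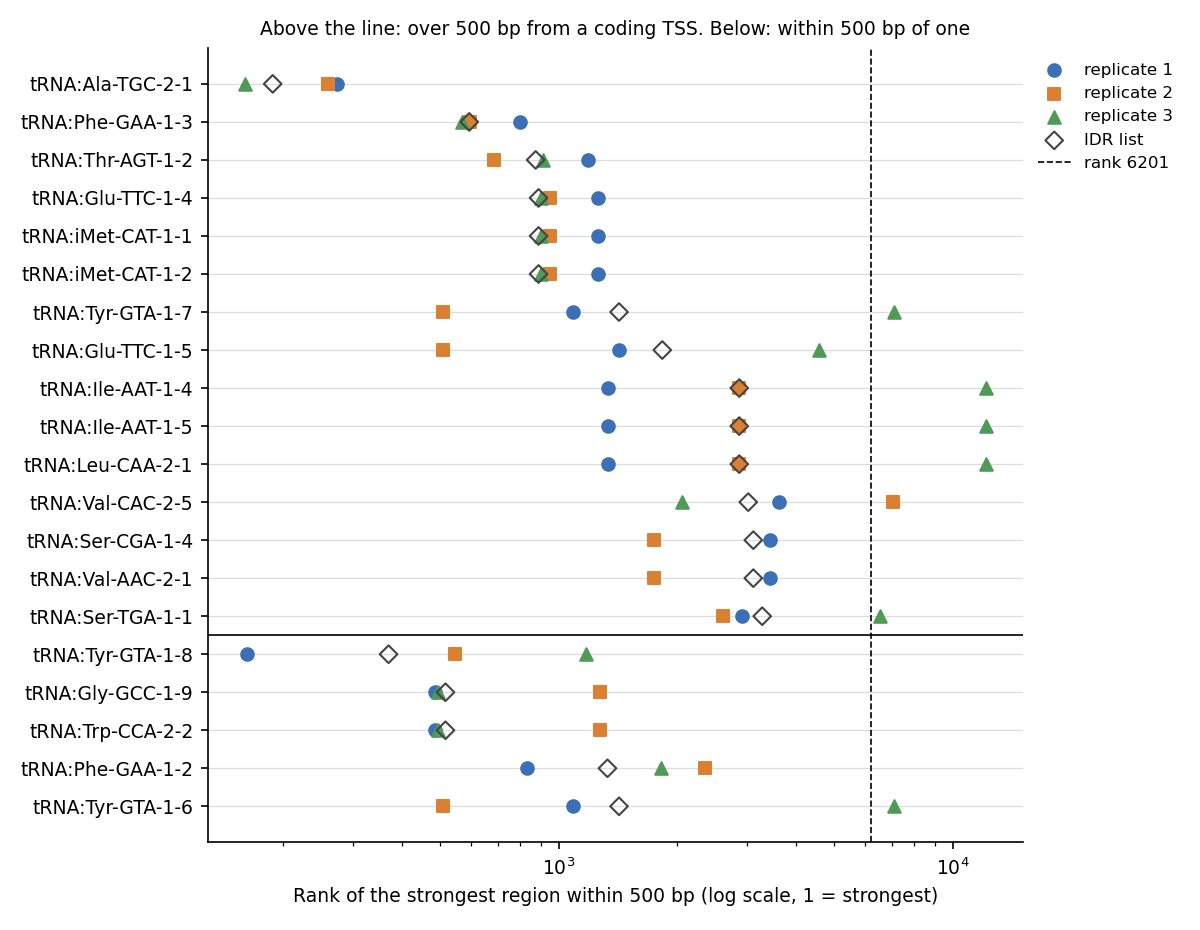
Rank (horizontal axis, log scale, 1 is the strongest) of the strongest region within 500 bp of the 15 tRNA genes away from coding TSSs and the 5 near one with the strongest IDR peaks; symbols are the 3 replicates and the IDR list, and the dashed line is rank 6201. The first 6 genes rank within 1255 in every replicate, and replicate 3 lies beyond 6201 or is missing at 8 of the 20.

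By isotype, phenylalanine had the highest share with an IDR summit (4 of 8 genes, at 3 peaks). Isoleucine (4 of 11, at 3 peaks), initiator methionine (2 of 6, at 1 peak) and tyrosine (3 of 10, at 2 peaks) followed. Alanine and proline came next (5 of 17 each, at 4 peaks each). The 4 isotypes with none were lysine (19 genes), asparagine (10), cysteine (7) and the single selenocysteine gene. Absence from the IDR list was not absence from the replicates, except at the selenocysteine gene, which had no region in any. Asparagine genes had regions in the whole lists at 9, 9 and 2 of 10 genes in replicates 1, 2 and 3. Lysine genes had them at 7, 6 and 4 of 19 and cysteine genes at 4, 4 and 1 of 7. All tRNA genes were at 59.0%, 55.9% and 37.6%, so lysine genes had a lower share in each replicate. The lysine genes include the 4 of the Lys-TTT-2-1 cluster, which had no region in any replicate and where read placement is unknown. Isotypes share clusters and peaks, and the counts are small.

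**Figure D5:**
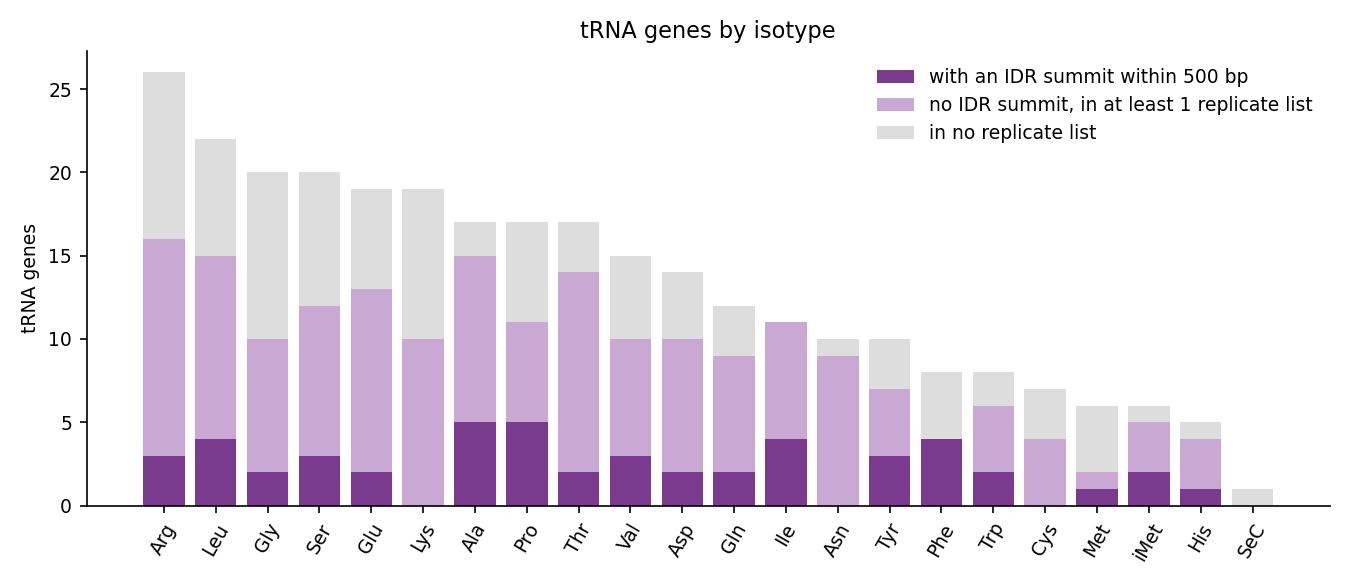
Number of tRNA genes (vertical axis) of each isotype, split into those with an IDR summit within 500 bp, those without one but with a region in at least 1 whole replicate list, and those in no replicate list. Lysine, asparagine, cysteine and selenocysteine (SeC) genes have no IDR summit.

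The arms differed as well in the IDR list, but their order was not the same in every replicate. An IDR summit lay near 25 of 98 tRNA genes on 2R (25.5%, at 16 peaks), 15 of 79 on 3R (19.0%), 6 of 41 on 2L (14.6%), 3 of 48 on 3L (6.25%) and 1 of 24 on X (4.17%). Among genes of other classes, measured from the gene start, the share per arm ran from 13.2% on X to 17.5% on 2R. On 2R the strongest regions gave 31.6%, 43.9% and 14.3% of tRNA genes in replicates 1, 2 and 3. On 2L they gave 9.76%, 9.76% and 17.1%, so in replicate 3 2L lay above 2R. Genes with 1 copy of their sequence had IDR summits at 10 of 52 (19.2%), those with 2 to 5 copies at 14 of 103 (13.6%) and those with 6 or more at 26 of 135 (19.3%). The share was lowest in the middle class, and how reads that match several copies were assigned is not given in the sources used here. Of 156 genes between protein-coding genes 30 (19.2%) had an IDR summit, of 127 in introns 17 (13.4%) and of 7 that overlap exons 3.

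The Iroquois sequence ACANNTGT, searched on both strands, was present within 100 bp of 3 of the 34 IDR summits near tRNA genes (8.82%), against 829 of 6167 other IDR summits (13.4%). The 3 peaks were those of Tyr-GTA-1-8, of Arg-CCT-1-2 and Arg-CCT-1-3, and of Ala-AGC-2-2, Pro-TGG-1-2 and Ala-AGC-2-3. Within 500 bp of the 5' end it occurred at 19 of 50 tRNA genes with an IDR summit (38.0%), 75 of 240 without (31.2%) and 31.7% of other genes. The promoter sequences TATCGATA and GGTCACACT occurred at 3 and 1 of the 50, and at 11 and 1 of the 240, against 10.3% and 6.78% of other genes. GAGAGAG occurred at 4 of the 50 and 18 of the 240, against 12.1% of other genes.

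Other RNA genes made by RNA polymerase III were mixed. The 7SK RNA gene snRNA:7SKa, whose RNA restrains the elongation factor P-TEFb, had an IDR summit inside the gene with a signal of 1371 and ranks of 82, 70 and 71 in replicates 1, 2 and 3. It was stronger than the peak of any tRNA gene. The RNase MRP gene RNaseMRP:RNA had one as well, with ranks of 1830, 1992 and 3107. The U6 genes snRNA:U6:96Ab and snRNA:U6:96Ac, which encode a spliceosome RNA, shared a region of rank 5193 in replicate 1 and 1708 in replicate 2, with none in replicate 3 and no IDR summit. The IDR list had none at snRNA:U6:96Aa, snRNA:U6atac, snRNA:7SKb, RNaseP:RNA or the 7SL genes 7SLRNA:CR42652 and 7SLRNA:CR32864. The 7SL genes lie inside the cluster of Lys-TTT-2-1, where it is unknown whether reads could be placed. None of the 99 ribosomal RNA genes annotated on the arms had a summit in any list, the whole lists included. Since these genes are repeats and the handling of reads with several matches is not given, whether reads could be placed there is unknown, and the 0 is no measure of signal.

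The protein-coding genes of tRNA production had IDR shares near that of all coding genes. An IDR summit lay within 500 bp of a TSS of 3 of 16 genes of the RNA polymerase III machinery (18.8%) and 7 of 35 aminoacyl-tRNA synthetase genes (20.0%), against 21.1% of all 13945 protein-coding genes. In the strongest regions the shares were 12.5% ± 10.8 and 21.9% ± 13.2, against 20.4% ± 3.36 (SD, n = 3 each). The 3 polymerase III genes were Brf and Bdp1, subunits of TFIIIB, and the polymerase subunit gene Polr3E, with signals of 617, 384 and 432; La and Maf1 had none. Brf ranked 349, 12252 and 421 in replicates 1, 2 and 3, and Bdp1 and Polr3E were likewise lowest in replicate 2. The strongest synthetase gene was AspRS, with a signal of 735 and ranks of 324, 191 and 1322. It was followed by SerRS (signal 429), GluProRS (383), AsnRS (310), TrpRS (227) and LeuRS-m (224), and AlaRS and AlaRS-m had none.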

How the data were processed

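Peak lists from 3 biological replicates were used as the authors deposited them. Per the deposited file descriptions, reads were aligned to dm6, regions were called in each replicate and on all 3 together against 1 control alignment, and IDR was applied. The caller, aligner, handling of reads with several matches and IDR threshold are not given in the sources used here. The signal per region was deposited by the authors on an unstated scale and served only to rank regions within a list. The 6201 IDR peaks were the 6201 strongest pooled regions.

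Summits were placed on Ensembl 115 (BDGP6.54), with sequence from the RefSeq copy of release 6, whose arms are those of dm6, using Python 3.11.15, numpy 2.4.6 and matplotlib 3.10.9. A gene counted when a summit lay within 500 bp of it. The look-up was tested on simulated data. The members and lists were chosen with earlier results of these data known. Genes were named by rule: up to 15 genes away from coding TSSs and 5 near one with the strongest peaks, the 3 clusters with most genes, genes strongest in all 3 replicates without an IDR summit, and up to 6 list members with and 2 without a summit per list; genes whose sequence is printed, and those listed by motif or RNA class, were chosen after their values were seen. The B box form GTTCNANNC was added after the data were seen. Shares carry the SD over replicates; no test was made, since there is 1 group. Alternatives were the window, overlap, 5' end, merged loci, 3100 strongest IDR peaks and leaving out replicates.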

Additional observations from a re-analysis of the deposited data

How the results depend on the processing

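The count of 50 tRNA genes with an IDR summit and the 36 away from coding TSSs depend on the processing. With windows of 250 bp they were 37 and 27, and with 1000 bp 70 and 55. When the peak had to overlap the gene they were 25 and 19, by merged loci 31 of 174 and 23 of 161, and for the 3100 strongest IDR peaks 20 and 12. Where an IDR peak also had to overlap the strongest regions of the remaining replicates, leaving out 1 replicate in turn gave 22 to 43 and 15 to 31. They were 22 and 15 without replicate 1, 23 and 17 without replicate 2, and 43 and 31 without replicate 3. The mean replicate share of 19.0% became 10.5% with overlap and 50.8% in the whole relaxed lists, and 15.5% to 22.4% with 1 replicate left out. The cause of these shifts was not tested. Measured from the 5' end, with a coding TSS distance of 1000 bp (26 of 210), or with the summit itself over 500 bp from a coding TSS (33 of 257, added after the data were seen), the counts stayed within 1.5 times. The polymerase III and synthetase lists gave 10 genes with an IDR summit at either window. No paired analysis was possible because the samples form 1 group. Depth is unknown, so the low share in replicate 3 cannot be given a counting error.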
